A study of Homo sapiens with 12 samples.

Results

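The genes for translation initiation factors were followed in TE-1, an established line from a human oesophageal cancer, after the interferon-induced gene IFI6 had been raised or lowered. Members were all protein-coding genes whose symbol starts with EIF followed by a digit from 1 to 6, except the EIF2AK kinases. This gave 52 members of 19771 protein-coding genes in the deposited table. Of these, 49 averaged 1 FPKM or more across all 12 libraries, as did 10925 protein-coding genes in all. FPKM is a fragment count divided by transcript length and by the mapped fragments of the library, so levels can be set side by side between genes. EIF4EBP3 was below that level, with a mean of 0.047 FPKM, and EIF4E1B and EIF1AY were listed at 0, so these 3 members were not tested.

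The cells were grown in DMEM with serum and sequenced as total RNA 48 h after transfection of a vector. OE_IFI6 received a vector that overexpresses IFI6 and OE_control its control vector. The sh_IFI6 cells received a hairpin vector against IFI6, and the sh_control cells a control hairpin vector. Each group had 3 libraries, so all 12 libraries share the line, the medium, the time and a transfection, and no untransfected cells were included. The labels name neither the promoters of the vectors nor the hairpin sequence, and nothing shows that the 3 libraries in each group came from separate cultures. The p-values therefore reflect the spread among libraries alone, and that spread may be technical. The question stated for the series is which genes and pathways depend on IFI6 expression.

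Initiation brings a ribosome to the start codon of an mRNA. The factor eIF2 carries the initiator tRNA, eIF1 and eIF1A hold the small subunit open while it scans, and eIF3 is a large scaffold on that subunit. The eIF4F complex, made of the cap binder eIF4E, the scaffold eIF4G and the helicase eIF4A, recruits the mRNA. Both entry steps are regulated: phosphorylated eIF2 blocks its exchange factor eIF2B during stress, and 4E-binding proteins keep eIF4E from eIF4G when the kinase mTORC1 is inactive. These controls act largely on proteins, which were not measured here.

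IFI6 measured 312 ± 45 FPKM (SD, n = 3) in OE_IFI6 against 24.7 ± 5.92 in OE_control, and 14.6 ± 0.646 in sh_IFI6 against 23.4 ± 1.97 in sh_control. Neither pair of groups overlapped, and the exact two-sided permutation p was 0.1 for each, the smallest that 3 against 3 libraries can give. In the fit over all genes the hairpin difference in IFI6 did not pass (log2 difference of -0.64, adjusted p = 0.82). Summed FPKM of coding genes was 325877 to 357145 per library, and read depth was not known. The OE_control libraries stood apart: on the first principal component of all tested genes they lay between -30.55 and -22.2, and the other 9 libraries between 5.89 and 11.3. All 7 stress reference genes were higher in them, among them DNAJB1, a heat shock co-chaperone, at 272 FPKM against 31.5 in OE_IFI6, and DDIT3, which encodes CHOP, at 19.4 against 4.11. The label of an oesophageal squamous tumour line was checked against 8 epithelial and squamous genes. KRT8 (mean 930.3 FPKM) and KRT18 (mean 439 FPKM) were high, KRT5, EPCAM and SOX2 were at 0, and the means of KRT14, CDH1 and TP63 were 0.0015, 0.042 and 0.10 FPKM, so defining squamous markers were absent. Summed fibroblast markers stayed between 5.64 and 8.31 FPKM in every library, immune markers between 1.5 and 3.09, with CD3E at 0, and endothelial markers at or below 0.131.

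A set of near-identical sequences bears on how far 2 of the members can be read separately. EIF2S3 encodes the gamma subunit of eIF2 and EIF2S3B, on chromosome 12, is a near-identical copy of it. Their coding sequences differ at 25 of 1416 bases (98.23% identity), and the longest run without a difference is 205 bases (the labels do not state the read length). The stretch from base 255 to base 374 of each coding sequence holds 9 of the differences, shown in capitals, as GENCODE release 29 gives them.
EIF2S3: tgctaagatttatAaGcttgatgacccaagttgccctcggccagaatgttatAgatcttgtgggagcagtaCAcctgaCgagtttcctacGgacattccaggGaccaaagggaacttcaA
EIF2S3B: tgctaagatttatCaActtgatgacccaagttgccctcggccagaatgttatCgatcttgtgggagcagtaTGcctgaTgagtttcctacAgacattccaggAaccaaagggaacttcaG
A read confined to lower-case stretches fits both genes. The same comparison gave 0 mismatches over 2739 bases for EIF3C and EIF3CL, identities of 98.92% for EIF5A and EIF5AL1, 99.54% for EIF1AX and its pseudogene EIF1AXP1, 99.39% for EIF4E and its pseudogene EIF4EP2, and 98.6% for EIF3F and its pseudogene EIF3FP3 (mean 9.81 FPKM, 65.4% of that of EIF3F). By contrast, EIF1 and EIF1B were 82.01% identical and EIF4A1 and EIF4A2 76.93%. Levels of the first 6 pairs are therefore uncertain as split between their members.

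Upstream sequence is shown for 3 members with exon-free bases before their start: EIF4EBP2 and EIF4ENIF1, because both passed the test in the same comparisons, and EIF4G1, because it carries a motif found in several members. All are from RefSeq on GRCh38.p14, 5′ to 3′ on the gene's strand. The EIF4EBP2 stretch is chr10:70403895-70404144 on the plus strand, that of EIF4ENIF1 is chr22:31489938-31490092 on the minus strand, and that of EIF4G1 is chr3:184314356-184314494 on the plus strand. The EIF4ENIF1 stretch lies before the RefSeq start but inside the gene bounds of the deposited table, which run on to 31496108. Capitals mark CACGTG, the E-box core bound by MYC and related factors.
EIF4EBP2: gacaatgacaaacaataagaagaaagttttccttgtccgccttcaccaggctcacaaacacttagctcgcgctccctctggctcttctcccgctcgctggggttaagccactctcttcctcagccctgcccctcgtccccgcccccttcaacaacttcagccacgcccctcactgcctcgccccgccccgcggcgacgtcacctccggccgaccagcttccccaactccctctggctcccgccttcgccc
EIF4ENIF1: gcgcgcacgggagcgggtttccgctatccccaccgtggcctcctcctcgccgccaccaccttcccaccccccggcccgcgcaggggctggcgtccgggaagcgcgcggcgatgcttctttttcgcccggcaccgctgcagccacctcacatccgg
EIF4G1: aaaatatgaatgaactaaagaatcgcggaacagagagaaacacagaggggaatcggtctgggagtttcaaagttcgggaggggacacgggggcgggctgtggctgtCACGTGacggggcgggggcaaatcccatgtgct
RefSeq promoters of 300 bases, from 250 before to 50 after the start, were matched for 44 members. CACGTG, the same on both strands, was in 11 of them (25.0%), against 7.26% of 35116 promoters of all kinds and 10.7% of the promoters of 8682 tested genes. The 11 were EIF1B, EIF2B3, EIF3F, EIF3K, EIF4A3, EIF4B, EIF4E, EIF4EBP3, EIF4G1, EIF4H and EIF5A2, and none of the 4 members called below was among them. TGATGNAA, a site type of ATF4 with a C/EBP partner searched on both strands, was in 0 of 44 (1.52% of tested genes), TGACGTCA in 0 (3.5%) and the heat shock element core GAANNTTC in 2 (4.46%). The motif counts are descriptions of these windows. Member promoters had a median GC content of 64.3%, against 58.7% for all promoters. GC content was not set against promoters of tested genes alone, so this gap may not be particular to members.

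Levels ranged widely among members. EIF2S3 was highest, with a mean of 539 FPKM over the 12 libraries (448 to 612), followed by EIF4B, an eIF4A cofactor, at 455 (397 to 549), EIF3E at 394 and EIF4G2, an eIF4G relative without the eIF4E-binding site, at 312. Each of these 4 overlapped its neighbour in this order between libraries. At the low end of the tested members lay EIF4E3 at 1.12, EIF5A2 at 1.53 and EIF5AL1 at 1.66 FPKM. All members together made up 1.10% to 1.24% of summed coding FPKM per library.

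Genes for subunits of one complex were not at one level. For eIF2, the means were 539 FPKM for the gamma subunit EIF2S3, 36.7 for the alpha subunit EIF2S1 and 32.3 for the beta subunit EIF2S2. The 14 eIF3 genes ran from 11.8 FPKM for EIF3J, a loosely bound subunit, to 394 for EIF3E, a ratio of 33.3. These totals sum all transcript records of a gene. Coding records held on average 61.5% of EIF3E, with 33.6% in retained-intron records. They held 44.2% of EIF3J, with 40.7% in records annotated for nonsense-mediated decay. The 5 eIF2B genes lay closer together, from 6.77 for EIF2B2 to 25.3 for EIF2B3, a ratio of 3.73. In eIF4F, the cap binder EIF4E measured 6.69 FPKM, the scaffold EIF4G1 21.5, and the helicases EIF4A1 and EIF4A2 108 each. The equal helicase totals hide unlike transcripts: records annotated as coding held on average 85.0% of EIF4A1 but 22.1% of EIF4A2. Retained-intron records held 45.4% of EIF4A2 and records annotated for nonsense-mediated decay 32.4%. Of the 4E-binding genes, EIF4EBP1 at 48.2 and EIF4EBP2 at 17.9 were above EIF4E itself. EIF4ENIF1 at 4.49 and EIF4EBP3 at 0.047 were below it. Reads may be shared between EIF4E and EIF4EP2, whose mean was 12.0 FPKM. With EIF4EP2 added, EIF4E averaged 21.9 FPKM in OE_control and 16.7 in sh_IFI6, against 13.8 and 18.7 for EIF4EBP2, so that order is uncertain.

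**Figure D1:**
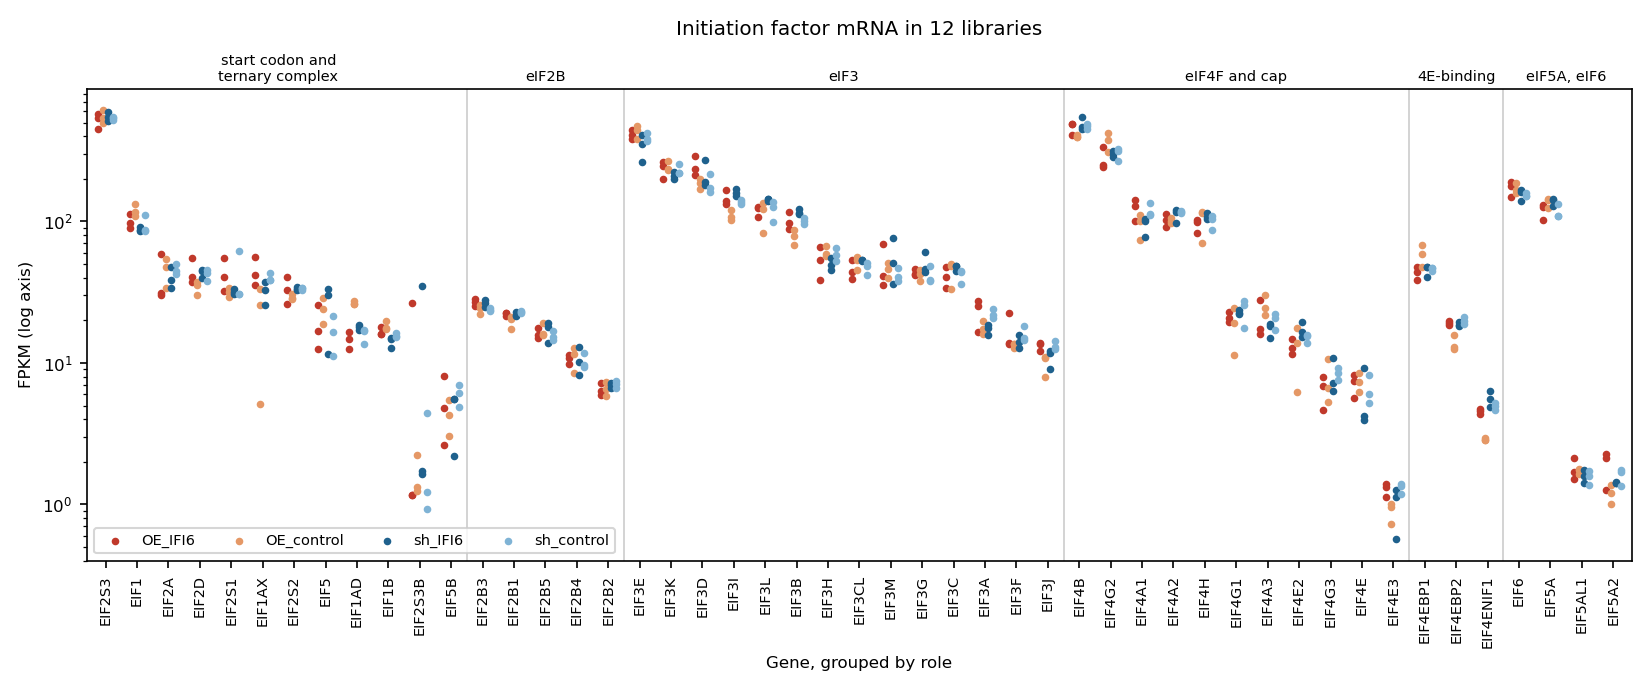
FPKM (log axis) of the 49 tested members in each of the 12 libraries, coloured by group and ordered by mean within each role. EIF2S3 is highest at 539 FPKM on average, EIF4E3 lowest at 1.12, and EIF2S3B and EIF1AX have single libraries far from the rest.

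In OE_IFI6 against OE_control, 4 of 49 members passed the test across all 10925 genes (8.16%), against 7.66% of all genes tested. EIF4ENIF1, EIF4EBP2 and EIF3I were higher in OE_IFI6 (3 of 49, with 4.1% of all genes higher) and EIF1AD was lower (1 of 49, with 3.56% of all genes lower). The share called among members was near that of all genes. At an unadjusted p under 0.05 there were 12 of 49 members and 2562 of 10925 genes. The median log2 difference was 0.048 over members and 0.046 over all tested genes, and the median size without sign was 0.20 for both. With 1 library left out the member median ran from -0.0050 (without OE_control 1) to 0.095 (without OE_control 3). Libraries of the groups did not overlap for 9 members higher (13.5% of all genes) and 1 lower (9.78%).

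**Figure D2:**
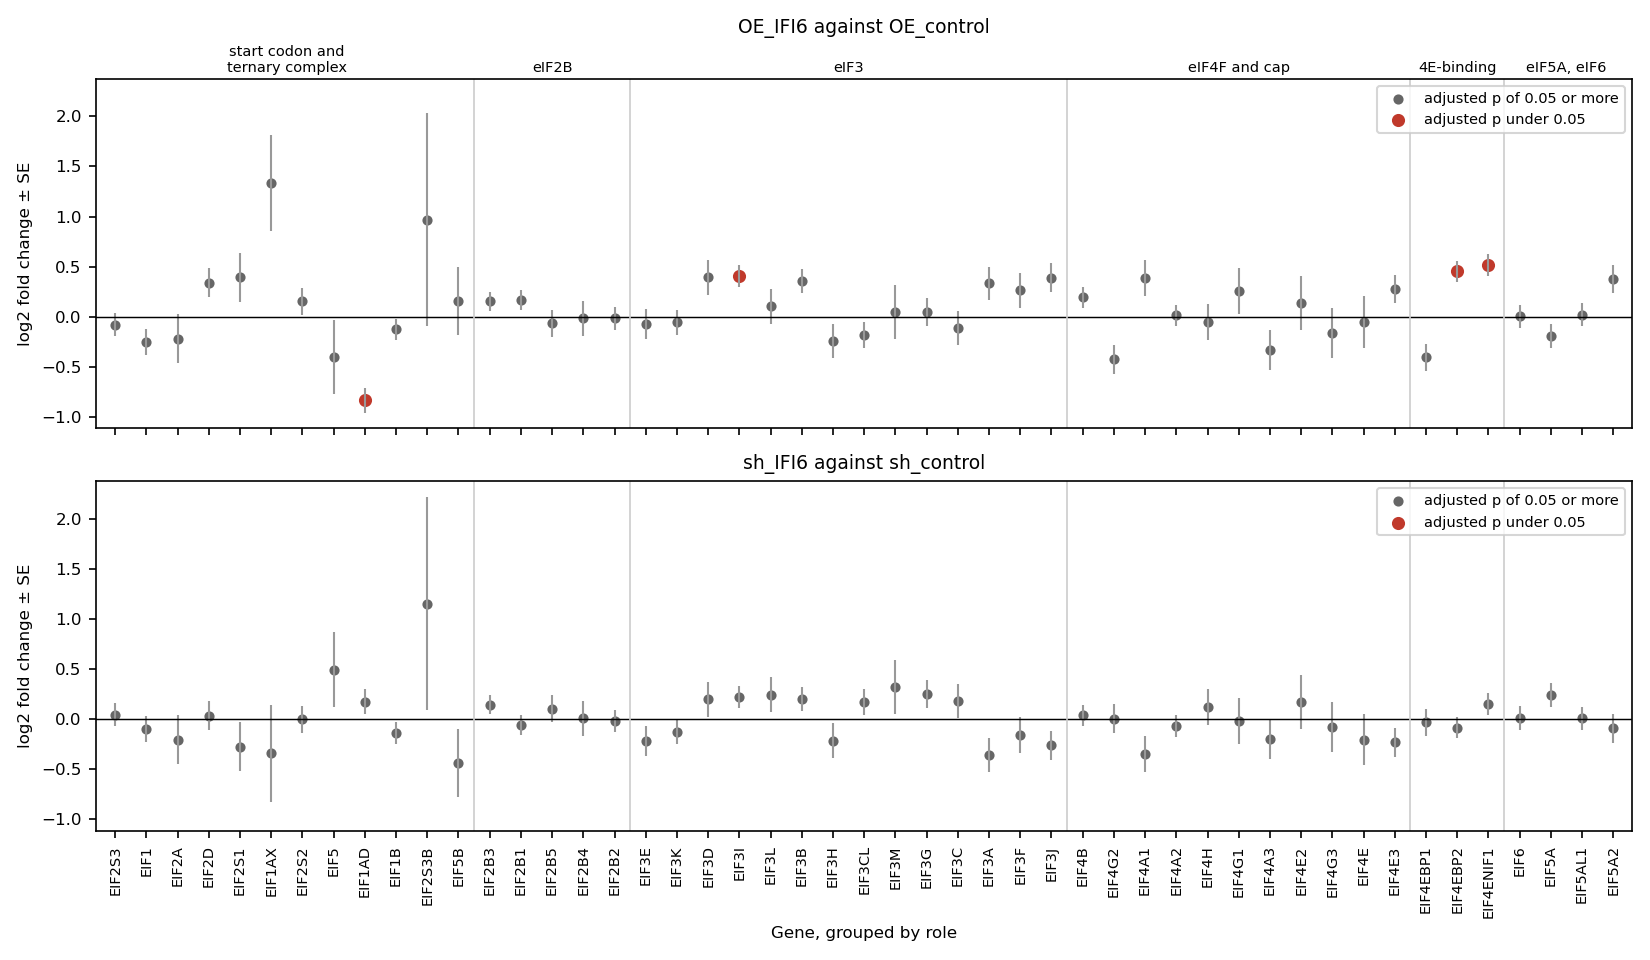
Log2 fold change (log2 of FPKM + 1) with its standard error for the 49 members by role, upper plot for OE_IFI6 against OE_control and lower plot for sh_IFI6 against sh_control. In the upper plot 4 members are past the threshold (red), in the lower plot 0, and the long bars of EIF2S3B and EIF1AX come with single deviating libraries.

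EIF1AD, which encodes a protein with a domain like that of eIF1A and lies at 11:65996545-66002176 (ENSG00000175376), was the lower one. Its levels were 26.1, 27.3 and 26.3 FPKM in the OE_control libraries and 12.5, 14.7 and 16.6 in OE_IFI6. They were 17.0, 18.5 and 18.1 in sh_IFI6 and 17.0, 16.8 and 13.5 in sh_control. The OE_control libraries were thus above all other 9, and the other 3 groups overlapped in part. The log2 difference of OE_IFI6 from OE_control was -0.83 (SE 0.12, adjusted p = 0.0020). OE_control was also higher than sh_control, by 0.72 (adjusted p = 0.0054). These comparisons share the OE_control libraries, as do all pairs of values quoted below for them. In bulk RNA, fewer cells with a transcript and less of it per cell cannot be told apart. EIF1AD overlaps BANF1 on the opposite strand, and the labels do not say whether counting used strand. BANF1 measured 37.8 ± 17.7 FPKM in OE_IFI6 and 46.3 ± 16.5 in OE_control (log2 difference of -0.36, adjusted p = 0.63).

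The called regulators of eIF4E went the other way. EIF4ENIF1 (22:31436977-31496108, ENSG00000184708) encodes 4E-T, which binds eIF4E and takes it into the nucleus and into P-bodies. Its levels were 4.39, 4.56 and 4.72 FPKM in OE_IFI6 and 2.84, 2.83 and 2.95 in OE_control. They were 4.90, 6.35 and 5.59 in sh_IFI6 and 5.17, 4.98 and 4.62 in sh_control, so OE_control was below every other library. The log2 difference was 0.52 (SE 0.11, adjusted p = 0.014) for OE_IFI6 against OE_control and -0.61 (adjusted p = 0.0066) for OE_control against sh_control. Its opposite-strand neighbours DRG1 and SFI1, which overlap it, differed by 0.06 (adjusted p = 0.77) and 0.19 (adjusted p = 0.56) between OE_IFI6 and OE_control. For OE_control against sh_control they differed by 0.10 (adjusted p = 0.58) and -0.45 (adjusted p = 0.14). SFI1 thus lay in the direction of EIF4ENIF1 there, without passing, at 6.11 against 8.68 FPKM. Whether reads of SFI1 enter the value of EIF4ENIF1 was not tested.

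EIF4EBP2 (10:70404145-70428618, ENSG00000148730), a 4E-binding protein that competes with eIF4G for eIF4E, measured 19.7, 19.1 and 18.6 FPKM in OE_IFI6 and 12.6, 15.7 and 12.9 in OE_control. It measured 18.3, 18.5 and 19.4 in sh_IFI6 and 21.3, 18.9 and 19.7 in sh_control. The OE_control libraries were again below all others. The log2 difference was 0.45 (SE 0.11, adjusted p = 0.024) for OE_IFI6 against OE_control and -0.51 (adjusted p = 0.014) for OE_control against sh_control. Fitted on the 6 libraries of the first comparison alone, the adjusted p was 0.18 for EIF4EBP2 and 0.11 for EIF4ENIF1.

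EIF4EBP1, the best-studied 4E-binding protein gene, measured 44.0, 38.6 and 47.5 FPKM in OE_IFI6 and 68.0, 47.4 and 59.1 in OE_control. The sh_IFI6 libraries had 47.6, 47.6 and 40.7 and the sh_control libraries 44.7, 46.7 and 47.1. It lay in the opposite direction from EIF4EBP2, with a log2 difference of -0.41 that did not pass (adjusted p = 0.095), and OE_IFI6 and OE_control overlapped. Without OE_control 2, which was the lowest of its group, the adjusted p was 0.029. That was the lowest of 22 alternatives, which reached up to 0.28, and leaving out the library nearest the other group favours a call. EIF4EBP3, the remaining gene of the family, reached no more than 0.331 FPKM in any library.

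**Figure D3:**
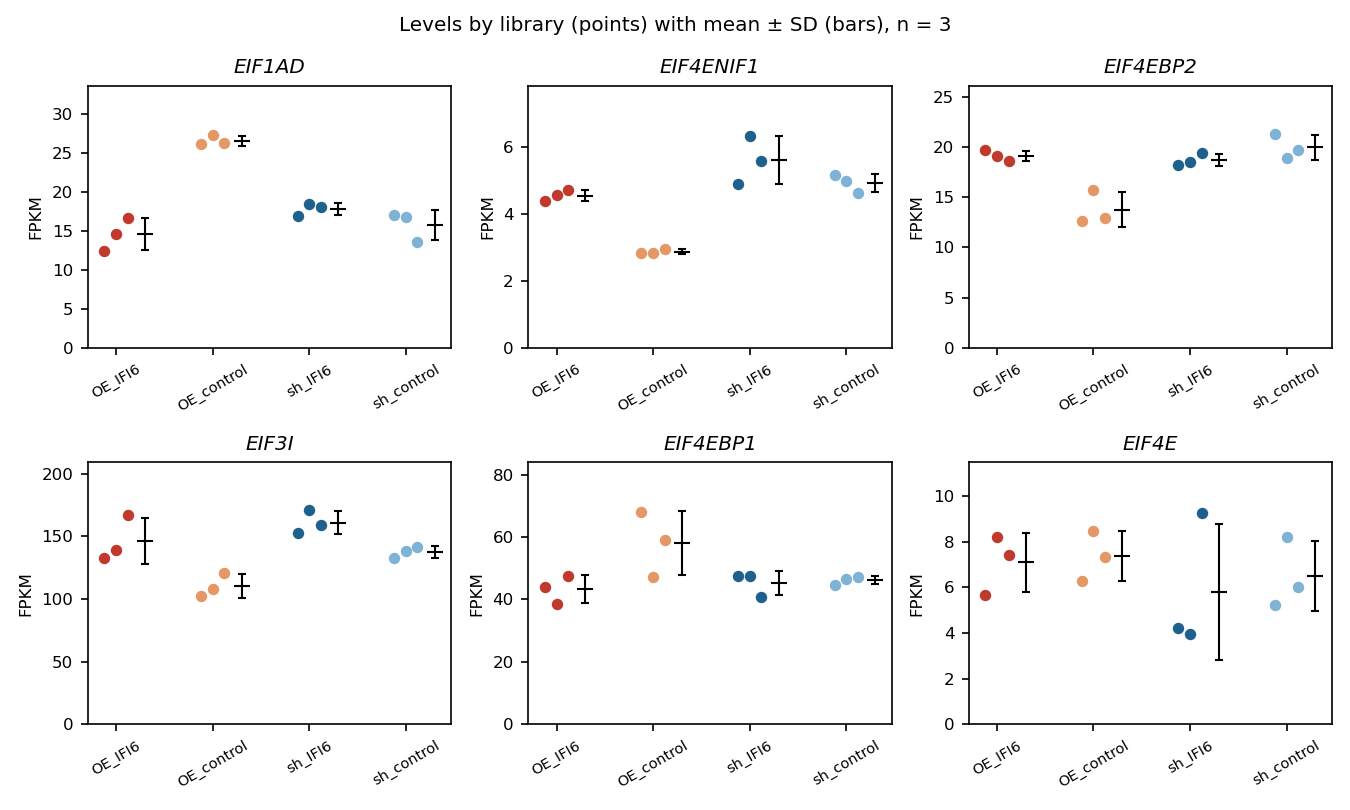
FPKM in each library (points) with group mean ± SD (bars, n = 3) for the 4 called members, EIF4EBP1 and EIF4E. The OE_control libraries lie above all others for EIF1AD and below all others for EIF4ENIF1, EIF4EBP2 and EIF3I, whereas those of EIF4E overlap the other groups.

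Within eIF3, EIF3I was the one called of 14 genes. EIF3I (1:32221928-32231604, ENSG00000084623) encodes a WD-repeat subunit that binds eIF3b. Its levels were 133, 139 and 167 FPKM in OE_IFI6, 102, 108 and 121 in OE_control, 152, 171 and 159 in sh_IFI6 and 133, 138 and 142 in sh_control. OE_control lay below all others, and the log2 difference of OE_IFI6 from OE_control was 0.40 (SE 0.11, adjusted p = 0.043). The call was lost in 13 of 22 alternatives, among them a fit of the libraries compared alone (adjusted p = 0.23). For OE_control against sh_control its difference of -0.32 did not pass (adjusted p = 0.098).

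EIF3B, the partner of eIF3i in the complex, also had all OE_control libraries below the other 9, at 68.5, 78.9 and 87.6 FPKM against 88.2 to 122, but its difference of 0.35 from OE_IFI6 did not pass (adjusted p = 0.10). EIF3A, the largest subunit, measured 27.3, 25.3 and 16.5 FPKM in OE_IFI6, 17.5, 19.8 and 16.0 in OE_control, 18.6, 15.6 and 17.5 in sh_IFI6 and 24.2, 21.9 and 20.9 in sh_control. Its level in OE_IFI6 3 lay within the range of OE_control: the adjusted p was 0.26 with that library and 0.027 without it. That was the lowest of 22 alternatives, which reached up to 0.55, and leaving out the library nearest the other group favours a call. The other 11 eIF3 genes (EIF3C, EIF3CL, EIF3D, EIF3E, EIF3F, EIF3G, EIF3H, EIF3J, EIF3K, EIF3L and EIF3M) did not pass in any comparison. The median log2 difference over the 14 was 0.08, with a range from -0.24 to 0.40.

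None of the 11 tested eIF4F and cap-binding genes passed in OE_IFI6 against OE_control, and 1 of them, EIF4G2, had an unadjusted p under 0.05. EIF4E measured 5.67, 8.19 and 7.43 FPKM in OE_IFI6, 6.28, 8.47 and 7.32 in OE_control, 4.21, 3.97 and 9.24 in sh_IFI6 and 5.24, 8.22 and 6.02 in sh_control, so all groups overlapped. EIF4G1 measured 19.6, 20.8 and 22.9 FPKM in OE_IFI6, 11.4, 19.0 and 24.5 in OE_control, 23.7, 22.3 and 22.7 in sh_IFI6 and 17.6, 27.3 and 25.8 in sh_control. The lowest value was that of OE_control 1, and the rest of the groups overlapped.

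The helicase EIF4A1 measured 101, 128 and 142 FPKM in OE_IFI6, 74.1, 100 and 110 in OE_control, 77.2, 105 and 101 in sh_IFI6 and 113, 134 and 111 in sh_control. Its difference was 0.39 between OE_IFI6 and OE_control (adjusted p = 0.22) and -0.35 between sh_IFI6 and sh_control (adjusted p = 0.82). EIF4A2 measured 91.8, 114 and 102 FPKM in OE_IFI6, 97.8, 105 and 100 in OE_control, 116, 97.8 and 120 in sh_IFI6 and 116, 118 and 114 in sh_control. Both helicases thus overlapped between OE_IFI6 and OE_control. EIF4A3, a core protein of the exon junction complex, the cap-binding relatives EIF4E2 and EIF4E3, the scaffold genes EIF4G2 and EIF4G3, and the eIF4A cofactors EIF4B and EIF4H did not pass as genes in any comparison.

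Of the 12 tested genes grouped under start codon selection and the ternary complex, EIF1AD alone passed. Its protein has a domain like that of eIF1A, and nothing here shows that it acts in start codon selection. EIF1, which keeps the scanning ribosome from starting at wrong codons, measured 113, 89.8 and 98.2 FPKM in OE_IFI6, 133, 117 and 108 in OE_control, 87.5, 91.4 and 85.8 in sh_IFI6 and 112, 87.0 and 86.0 in sh_control. It was highest in OE_control 1, but the groups overlapped and its difference of 0.33 from sh_control did not pass (adjusted p = 0.14). EIF1B, whose coding sequence is 82.01% identical to that of EIF1, did not pass in any comparison either. Nor did EIF2S2, EIF2S3, or EIF2A and EIF2D, which bring initiator tRNA or act in special cases. The same held for EIF5, which triggers GTP hydrolysis on eIF2, and EIF5B, which joins the subunits.

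EIF2S1, whose protein is the target of the stress kinases, measured 32.3, 40.2 and 55.1 FPKM in OE_IFI6, 33.6, 31.6 and 29.1 in OE_control, 33.0, 30.7 and 32.0 in sh_IFI6 and 61.7, 30.7 and 30.5 in sh_control. OE_IFI6 3 and sh_control 1 were the libraries above 40.2 FPKM, and in both a retained-intron transcript was high, as its values further on show. The 5 subunit genes of eIF2B had 0 calls in every comparison, with log2 differences from -0.06 to 0.17 between OE_IFI6 and OE_control. EIF2B1, the regulatory alpha subunit, measured 22.7, 21.3 and 22.4 FPKM in OE_IFI6, 17.2, 21.3 and 20.3 in OE_control, 22.8, 21.7 and 21.5 in sh_IFI6 and 23.4, 22.6 and 22.8 in sh_control. Its OE_control libraries were the 3 lowest of the 12, by a narrow margin for OE_control 2.

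EIF5A, whose hypusine-bearing protein helps elongation and termination, measured 103, 127 and 131 FPKM in OE_IFI6, 125, 143 and 141 in OE_control, 129, 144 and 141 in sh_IFI6 and 109, 110 and 132 in sh_control. EIF6, which keeps the large subunit from joining early, measured 178, 149 and 189 FPKM in OE_IFI6, 188, 158 and 167 in OE_control, 161, 138 and 167 in sh_IFI6 and 159, 152 and 151 in sh_control. Neither gene, nor EIF5A2 or EIF5AL1, passed in any comparison, and their groups overlapped between OE_IFI6 and OE_control.

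In sh_IFI6 against sh_control, 0 of 49 members passed by limma and 0 had an unadjusted p under 0.05, against 0.0% of all genes called and 563 genes at an unadjusted p under 0.05. The median was -0.00083 over members and 0.0048 over all genes. EIF3A had the smallest p, with a log2 difference of -0.36 (SE 0.17, adjusted p = 0.82). Libraries did not overlap for 5 members higher (9.46% of all genes) and 5 lower (9.61%). The median standard error over members was 0.15, which limits the size of difference that could be called.

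The difference between both IFI6 effects, overexpression minus hairpin, passed for 1 of 49 members (2.04%), against 2.69% of all genes. This was EIF1AD, at -1.0 (SE 0.17, adjusted p = 0.013). EIF4EBP2 had 0.54 (adjusted p = 0.084).

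OE_control against sh_control, the comparison of both control vectors, called 3 of 49 members (6.12%), against 7.52% of all genes. EIF1AD was higher (1 member, 2.75% of all genes higher), and EIF4ENIF1 and EIF4EBP2 were lower (2 members, 4.78% of all genes lower). The median was -0.039 over members and -0.087 over all genes. Libraries did not overlap for 3 members higher (10.1% of all genes) and 15 lower (20.3%). The OE_control libraries were above all other 9 for EIF1AD alone (5.01% of all genes) and below them for EIF3I, EIF4EBP2, EIF2B1, EIF4ENIF1 and EIF3B (8.16% of all genes). OE_IFI6 against sh_control leaves the OE_control libraries aside: 0 of 49 members passed by limma, 1 had an unadjusted p under 0.05 (EIF3D), and 0.0183% of all genes were called. There the differences were -0.11 for EIF1AD, -0.09 for EIF4ENIF1, -0.06 for EIF4EBP2 and 0.08 for EIF3I.

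The genes around the initiation factors were described by lists. The stress reference genes HSPA1A, DNAJB1, HSPA5, ATF4, DDIT3, ASNS and TRIB3 all fell in OE_IFI6 against OE_control (7 of 7 called lower, median log2 difference -1.74) and all were higher in OE_control than in sh_control (7 of 7, median 1.81). Their part in the member results was not tested. Between sh_IFI6 and sh_control 0 of the 7 passed, with 0 at an unadjusted p under 0.05.

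Of 12 kinases, phosphatase subunits and helpers that act on eIF2, 1 was called higher and 1 lower in OE_IFI6 against OE_control. Of all genes tested, 4.1% were called higher and 3.56% lower there, which holds beside each list below. PPP1R15A, which encodes the stress-induced eIF2 phosphatase subunit GADD34, fell by 1.38 on the log2 scale, from 24.3 ± 0.906 FPKM in OE_control to 8.86 ± 2.07 (adjusted p = 0.00034). NCK1, an adaptor found with eIF2 and its phosphatase, rose by 0.54 (adjusted p = 0.024). EIF2AK3, the endoplasmic reticulum kinase PERK, measured 12.6 ± 1.46 against 18.0 ± 3.94 FPKM and did not pass (adjusted p = 0.075). None of the 20 tested scanning, cap and poly(A) partners passed, with 4 at an unadjusted p under 0.05. NCBP1, of the nuclear cap-binding complex, had the smallest p there (0.42, adjusted p = 0.091).

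For control of mTORC1, the kinase complex that phosphorylates 4E-binding proteins, 2 of 23 genes were called higher and 1 lower. SESN2, a stress-induced mTORC1 inhibitor, fell by 1.17 (5.03 against 12.6 FPKM, adjusted p = 7.3e-05). RRAGB, a Rag GTPase, rose by 0.74 (adjusted p = 0.0052) and SESN3 by 0.78 (adjusted p = 0.029). Of 12 genes for elongation, termination and eIF5A modification, EEF2K, the kinase that inactivates eEF2, rose by 0.84 (adjusted p = 0.040) and ETF1, the release factor eRF1, by 0.46 (adjusted p = 0.046). The mitochondrial factors MTIF2 and MTIF3 had 0 calls of 2, with differences of 0.07 and 0.27. Between sh_IFI6 and sh_control every one of these lists had 0 calls, as between OE_IFI6 and sh_control. OE_control against sh_control called 1 of the 12 eIF2 genes higher, and 1 of the 23 mTORC1 genes higher and 2 lower. It also called 1 of the 12 elongation genes lower, against 2.75% of all genes higher and 4.78% lower. The part of the OE_control libraries in these list results was not tested.

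Some members have near-identical copies or single libraries far from the rest. EIF2S3B, EIF1AX and the transcripts of EIF2S1 and EIF1AX described here were chosen after their values were seen. EIF2S3B was listed at 26.3 FPKM in OE_IFI6 1 and at 34.7 in sh_IFI6 1, and between 0.932 and 4.45 in the other 10 libraries. Those 2 libraries are in different groups, and EIF2S3 itself was 448 and 513 FPKM there. With EIF2S3B added to EIF2S3, the difference between OE_IFI6 and OE_control was -0.05 (adjusted p = 0.82). EIF2S3B made up 9.55 of 529 FPKM of that sum in OE_IFI6 and 1.60 of 549 in OE_control. The summed result therefore reflects EIF2S3 and does not bear on the high EIF2S3B values.

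EIF1AX, the eIF1A gene on the X chromosome, measured 42.0, 56.3 and 35.5 FPKM in OE_IFI6 and 5.13, 33.1 and 25.8 in OE_control. It measured 32.7, 25.5 and 37.3 in sh_IFI6 and 43.3, 38.5 and 38.8 in sh_control. Its log2 difference of 1.34 between OE_IFI6 and OE_control was the largest among members and did not pass (SE 0.48, adjusted p = 0.12). OE_control 1 was far below all other libraries, while EIF1AXP1 there was 13.2 FPKM, within its range of 9.19 to 21.7. With the pseudogene added, the difference was 0.71 (adjusted p = 0.19). OE_control 1 was also the library in which the most members, 13 of 49, had their lowest value. That count was not made over all genes, among which OE_control 1 was the most extreme library too (-30.55 on the first principal component).

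EIF3C and EIF3CL, whose coding sequences of 2739 and 2742 bases had 0 mismatches where aligned, were at 33.4 to 50.4 and 39.1 to 56.0 FPKM. Of 72 pseudogenes named for members, 11 had a mean of at least 1 FPKM, led by EIF4BP7 at 16.3, EIF1AXP1 at 13.6 and EIF4EP2 at 12.0. Adding near copies to their genes left 4, 0, 1, 3 and 0 members called in the 5 comparisons, as many as without them. None of the called members EIF1AD, EIF4ENIF1, EIF4EBP2 and EIF3I had a copy added. Their own values were unchanged, so the equal counts do not test their calls. For EIF4E with EIF4EP2 the difference between OE_IFI6 and OE_control was -0.25 (adjusted p = 0.43).

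**Figure D4:**
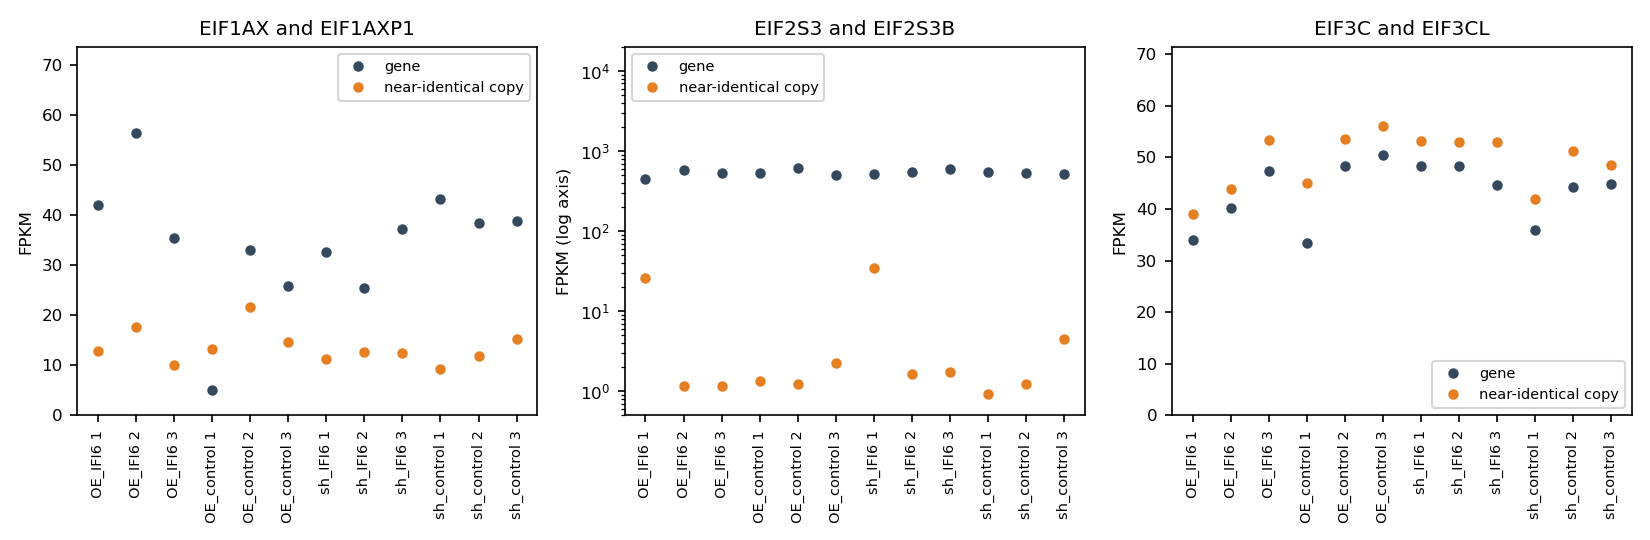
FPKM per library of 3 members and of a near-identical copy of each (middle plot on a log axis). EIF1AX is at 5.13 in OE_control 1 while its pseudogene stays within its range, and EIF2S3B is at 26.3 and 34.7 in 2 libraries and at most 4.45 in the other 10.

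At the level of transcripts, 119 of 273 member transcripts, from 49 genes, had a mean of at least 1 FPKM and were tested among 17030 transcripts. By limma, 0 passed in OE_IFI6 against OE_control (10 at an unadjusted p under 0.05, with 1.73% of all transcripts called) and 0 in sh_IFI6 against sh_control (7, with 0.0235%). OE_control against sh_control called 1, with 1.54% of all transcripts called and 0.81% called lower. This was EIF4B-201, the main transcript of EIF4B (12:53006158-53042209), at 299.8, 323 and 299.7 FPKM in OE_control and 391, 385 and 404 in sh_control. In OE_IFI6 it was at 359, 398 and 388 and in sh_IFI6 at 388, 426 and 408, so OE_control lay below every other library. The log2 difference from sh_control was -0.36 (SE 0.07, adjusted p = 0.032), and that of OE_IFI6 from OE_control, 0.31, did not pass (adjusted p = 0.052). The call against sh_control was lost in 10 of 18 alternatives, among them the replicate number as a block (adjusted p = 0.052).

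Coding transcripts held 78.4% to 85.6% of the members' FPKM per library and retained-intron transcripts 9.59% to 16.5%. A retained-intron record is often short, so few fragments give it a high FPKM. The main transcript of 4 genes differed most in its share between group means, and in each the libraries within some groups also differed widely. EIF3CL-201 was uniform within OE_control (99.2 ± 1.05%, SD) and within sh_control (2.73 ± 0.335%), and mixed within OE_IFI6 and sh_IFI6. EIF3CL-201 held 98.0% to 99.996% of EIF3CL in OE_IFI6 1 and 3, all OE_control libraries and sh_IFI6 1, and 2.15% to 2.97% in the other 6, where EIF3CL-202 held the rest. These records are 3085 and 3053 bases long and have nearly the same ends, and the gene total barely followed the switch.

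EIF5-215 ranged from 1.04% to 60.8% of EIF5, both in sh_IFI6 libraries. EIF2B4-206 held 52.0% of EIF2B4 in sh_IFI6 1 and was at 0 in sh_IFI6 2 and 3. EIF3K-201 held 3.97% of EIF3K in sh_control 1 and 25.9% in sh_control 3, against 51.3% in sh_control 2, while EIF3K-211 held 44.6% and 46.2% in the former and 10.7% in the latter. For each of these 3 main transcripts, the share of FPKM varied between libraries of 1 group by more than between group means.

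EIF2S1-203, a retained-intron record of 534 bases, held 52.8% of EIF2S1 in OE_IFI6 3 (29.1 FPKM) and 53.1% in sh_control 1 (32.8 FPKM), against 5.61% to 14.8% elsewhere (2.19 to 4.90 FPKM). The main coding transcript EIF2S1-201 was at 23.0 and 25.4 FPKM in those libraries, and at 25.6 to 34.2 in the other 10. The high gene totals of EIF2S1 in these libraries thus came with the short record and not with the coding transcript. EIF1AX-202, the coding record, was at 2.05 FPKM in OE_control 1 (40.0% of the gene), against 19.2 to 54.4 FPKM elsewhere.

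**Figure D5:**
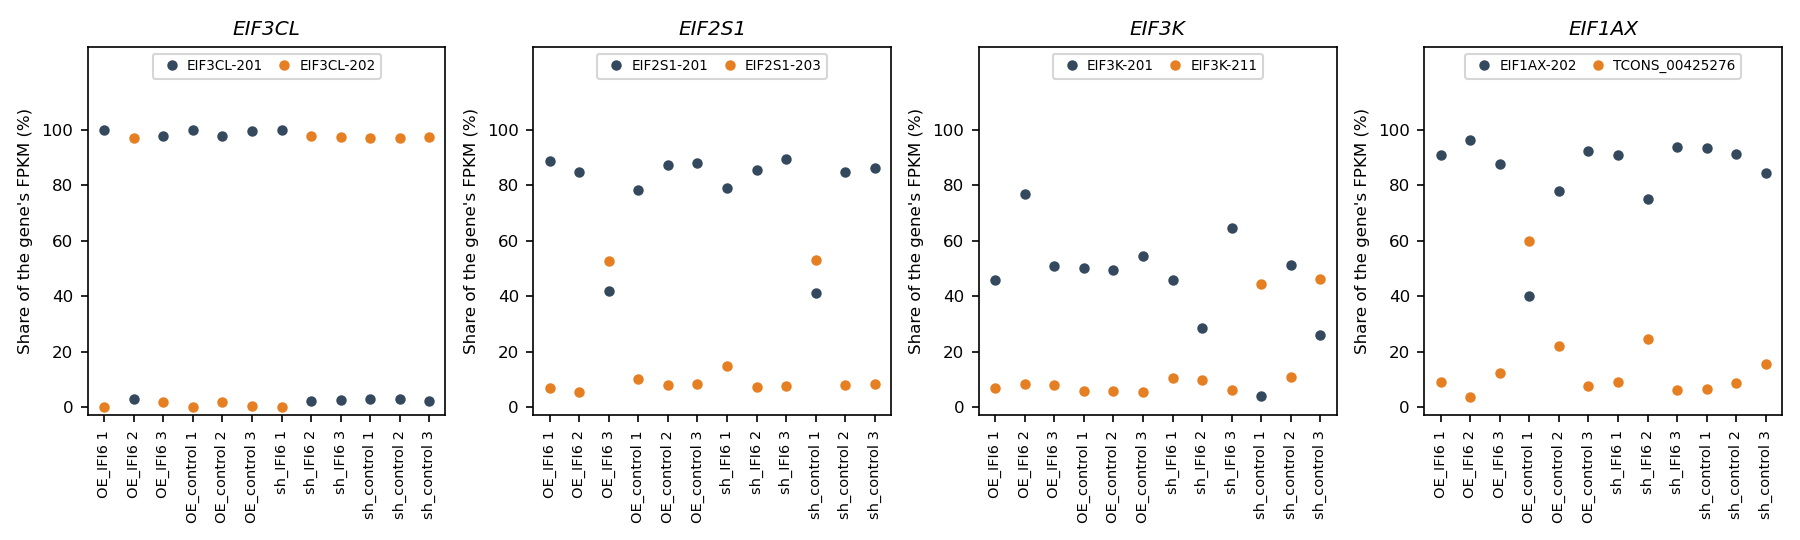
Share of the gene's FPKM (%) held by 2 transcripts of each of 4 genes in every library. EIF3CL switches between both transcripts with 6 libraries on each side, and EIF2S1-203 exceeds 50% in OE_IFI6 3 and sh_control 1 alone.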

How the data were processed

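Total RNA of 12 TE-1 libraries was sequenced, 3 in each of 4 groups, taken with their replicate numbers from the sample titles. The authors deposited FPKM values for genes and transcripts. Per the submitters' processing notes, the tools were edgeR, Cuffdiff, StringTie and HISAT2, without versions or roles. Build, annotation, strand use and depth: not given in the sources used here. All 52 members overlapped their GENCODE release 29 (GRCh38) bounds, and 22 had the same bounds; coordinates are those of the deposited tables. A gene's value was the sum of its transcripts. Low values lay on steps of 29.8 to 38.3 per kilobase at 1 FPKM, but whole reads could not be recovered (26.5% to 32.0% of low values within 1% of a whole step), so no count test was run.

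Log2(FPKM + 1) of genes averaging 1 FPKM or more was fitted with limma 3.58.1 (R 4.3.3) in 1 group-means model of 12 libraries (8 residual degrees of freedom, trended prior), and transcripts likewise. This scale understates changes of low genes. A call was a two-sided p under 0.05 after Benjamini-Hochberg adjustment over all genes, in each of 5 comparisons. The script was tested on simulated data. All members were accounted for, and values per library were given for called members and for 11 further genes (EIF4EBP1, EIF2S1, EIF2B1, EIF4E, EIF4G1, EIF4A1, EIF4A2, EIF1, EIF3A, EIF5A, EIF6). Transcripts past the threshold, the 4 main transcripts whose share differed most between groups, and up to 6 genes of smallest p per list were named; other features were chosen after their values were seen. The members and lists were chosen with earlier results of these data known. Copies were aligned by coding sequence (Biopython 1.88). Alternatives were another pseudocount, other filters, scalings and priors, fits of the libraries compared, the replicate block, leaving out each library and, added after the data were seen, near copies summed.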

Additional observations from a re-analysis of the deposited data

Results flagged for a closer look

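For EIF1AD, the overexpression and hairpin comparisons differed by a test of the difference itself (limma, -1.0 on the log2 scale, SE 0.17, adjusted p = 0.013). The log2 difference was -0.83 for OE_IFI6 against OE_control and 0.17 for sh_IFI6 against sh_control. The vectors were meant to move IFI6 in opposite directions, so this test cannot show that the responses disagree. The level was 26.6 ± 0.631 FPKM (SD, n = 3) in OE_control, 14.6 ± 2.07 in OE_IFI6, 17.8 ± 0.778 in sh_IFI6 and 15.8 ± 1.95 in sh_control. All 3 OE_IFI6 libraries were below all 3 OE_control libraries. OE_control, which stood apart in the stress genes DNAJB1 and DDIT3 too, takes part in 1 of the 2 effects, and its part in the difference was not tested. OE_IFI6 against sh_control, without OE_control, gave -0.11 for EIF1AD.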

How the results depend on the processing

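EIF1AD kept its direction and its call in all 22 alternatives of OE_IFI6 against OE_control (log2 difference -0.92 to -0.73, adjusted p 0.00096 to 0.038), and in all alternatives of the 2 other comparisons that called it. EIF4ENIF1 lost its call in 1 of 21 (adjusted p 0.011 to 0.11), EIF4EBP2 in 5 of 22 (0.012 to 0.18) and EIF3I in 13 of 22 (0.0059 to 0.23). The alternative with near copies summed left the values of these called genes unchanged, so it hardly tests their calls. In OE_control against sh_control EIF4EBP2 lost its call in 4 of 22, and EIF4B-201 in 10 of 18. The number of member genes called in OE_IFI6 against OE_control was 1 when only the libraries compared were fitted (1.53% of all genes called there), and 2 to 6 with 1 library left out (2 without OE_control 1 and 2 without OE_IFI6 2, with 4.6% to 7.86% of all genes called). For the difference between both effects it was 1 to 2 (2 without OE_control 2 or OE_IFI6 3, with 1.13% to 4.74% of all genes called). For OE_control against sh_control it was 2 to 3 (2.92% to 8.56% of all genes), and 5 with quantile normalization (6.48%). Member transcripts called in OE_IFI6 against OE_control were 1 with a pseudocount of 0.1 FPKM, 2 with a minimum mean of 5 FPKM, 2 with quantile normalization, and 0 to 1 with 1 library left out (1 without OE_control 2). In sh_IFI6 against sh_control they were 0 to 1 (1 without sh_control 2). In OE_control against sh_control they were 0 with no filter, 0 with median-of-ratios scaling, 2 with a minimum mean of 5 FPKM, 2 with quantile normalization and 0 to 2 with 1 library left out. Over these alternatives 0.356% to 5.05%, 0.0% to 0.094% and 0.47% to 4.53% of all transcripts were called in the 3 comparisons. Reversals occurred among genes that were never called. EIF4A2 was -0.024 with median-of-ratios scaling and -0.064 to 0.089 with 1 library left out (below 0 without OE_control 1 or OE_IFI6 2). EIF4E was -0.15 to 0.083 (above 0 without OE_control 2 or OE_IFI6 1) and EIF4G1 -0.035 to 0.49 (below 0 without OE_control 1). EIF6 was -0.035 with median-of-ratios scaling and -0.066 to 0.10 with 1 library left out (below 0 without OE_control 2 or 3, or OE_IFI6 1 or 3). The median over members in OE_control against sh_control was 0.05 with median-of-ratios scaling and -0.085 to -0.0069 with 1 library left out, and in sh_IFI6 against sh_control it was -0.023 to 0.015. The cause of these changes was not tested.

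The labels do not say that equal replicate numbers pair libraries, and not every same-number correlation of deviations exceeded 0.1. They were 0.087, 0.254 and 0.124 for OE_IFI6 with OE_control, where each library correlated best with its own number (other numbers -0.15 to 0.031), a hint from the data and not the design. They were 0.197, 0.014 and 0.123 for OE_control with sh_control (other numbers -0.217 to 0.105) and -0.043, -0.010 and -0.034 for sh_IFI6 with sh_control (other numbers -0.023 to 0.055). With the replicate number as a block, the member genes called were 4, 0, 1, 3 and 0 in the 5 comparisons, as many as without the block (7.34%, 0.0%, 2.29%, 7.1% and 0.0183% of all genes), and EIF4B-201 was no longer called (adjusted p = 0.052), leaving 0 transcripts. Leaving out a library leaves 2 in its group, which are assumed to vary like the rest. Depth is not known, so members near 1 FPKM, such as EIF4E3, carry the most counting error.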
